A study of Rattus norvegicus with 28 samples.

Results

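The E2 enzymes are the ubiquitin-conjugating enzymes, and they were taken here as the probe sets whose gene symbol begins with Ube2. A probe set is the group of array probes summarised into 1 value, and 36 of the 26208 probe sets on the array table met that rule. They carry 30 distinct Ube2 symbols. The rule used the symbols only and no measured value.

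The data are expression profiles of gastrocnemius muscle, from its proximal part, of 28 female rats of the Sprague-Dawley strain. The array was the Rat Gene 1.0 ST of Affymetrix. The 23 experimental rats were kept under isoflurane, mechanically ventilated and paralysed with α-cobrotoxin, which comes from cobra venom and keeps acetylcholine from its receptor at the motor endplate. They formed the groups 0.25-4d (from 6 h to 4 days, 13 rats), 5-8d (4 rats) and 9-14d (6 rats), and the remaining 5 were sham-operated controls that were anaesthetized and breathed on their own. Per the study's methods, the controls were killed within hours of their first anaesthesia and surgery, so they were not matched for duration. Blockade, ventilation, the length of anaesthesia and the time since surgery ran together in every experimental rat and cannot be told apart. The source field of the control samples also names the blocker and ventilation, against their titles, and the titles were followed. The age of the rats is not given in the labels used here.

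The values are log2 differences between the mean of a duration group and the mean of the controls, as the authors deposited them, each with a Benjamini-Hochberg adjusted p from limma. Values of single rats were not used here, so each difference is given with the standard error (SE) or 95% interval that its p-value implies, and the samples' muscle identity could not be checked against absolute marker levels. The 3 comparisons share their 5 control rats. Each experimental group joins rats of different durations, so its mean can hide a course within the group. In whole muscle, fewer cells of a type and less RNA per cell cannot be told apart. A probe set is called higher or lower at an adjusted p below 0.05, whatever its fold change.

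Ubiquitin reaches a protein in a relay. An E1 enzyme activates it, an E2 enzyme carries it on a cysteine, and an E3 ligase brings the loaded E2 to the substrate. Which E2 takes part helps to set the kind of chain that is built, and a few E2 enzymes carry ubiquitin-like proteins such as SUMO, NEDD8 or ISG15 in place of ubiquitin. In skeletal muscle this relay feeds the proteasome, and the muscle E3 ligases Trim63 (MuRF1) and Fbxo32 (atrogin-1) are the textbook markers of atrophy.

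The array reads some E2 genes through several probe sets. Ube2n has 4, all marked by the array annotation as cross-hybridising, and Ube2e2 has 2. Of the 36 probe sets, 8 carry that mark, among them the probe set shared by Tmem189 and Ube2v1, and 2 list a pair of gene symbols. In the probe set of Ube2m and Chmp2a, 14 of 26 probes match the Ube2m transcript. The symbol Ube2cbp is now Ube3d in RefSeq, an E2-binding ligase and not an E2 enzyme. No probe set in the table carries the symbols Ube2d2, Ube2d4, Ube2e1, Ube2r2, Ube2u or Ube2w.

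Most E2 calls came at the later durations, and their sizes were small. More probe sets were higher than lower there, though at 9-14d this rested on probe sets that are cross-hybridising or shared between genes. At 0.25-4d, Ube2g2 was the 1 E2 probe set that was higher and Ube2ql1 the 1 that was lower. At 5-8d, 14 probe sets (9 symbols) were higher and 2 were lower, and at 9-14d 10 (5 symbols) were higher and 3 were lower. The upward calls took 2.78%, 38.9% and 27.8% of the E2 probe sets at the 3 durations, where 1.49%, 14.9% and 17.3% of all probe sets were called higher. The downward calls took 2.78%, 5.56% and 8.33%, against 2.06%, 11.4% and 18.2% of all probe sets.

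The upward share rests partly on genes read several times. The 4 probe sets of Ube2n are all among the 10 called higher at 9-14d. Among the 27 E2 probe sets that are neither cross-hybridising nor shared between symbols, 6 (22.2%) were higher at 5-8d and 2 (7.41%) at 9-14d, against 13.6% and 15.8% of the 23372 such probe sets on the array. Of the same 27, 2 (7.41%) were lower at 5-8d and 3 (11.1%) at 9-14d, against 11.6% and 18.5%, so at 9-14d the lower calls were no fewer than the higher ones. Without the cross-hybridising and shared probe sets, the upward E2 share at 9-14d is therefore below that of the array, where with them it is above. The median E2 log2 differences at the successive durations were -0.01, 0.24 and 0.17, beside -0.01, -0.04 and -0.07 over all probe sets.

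**Figure D1:**
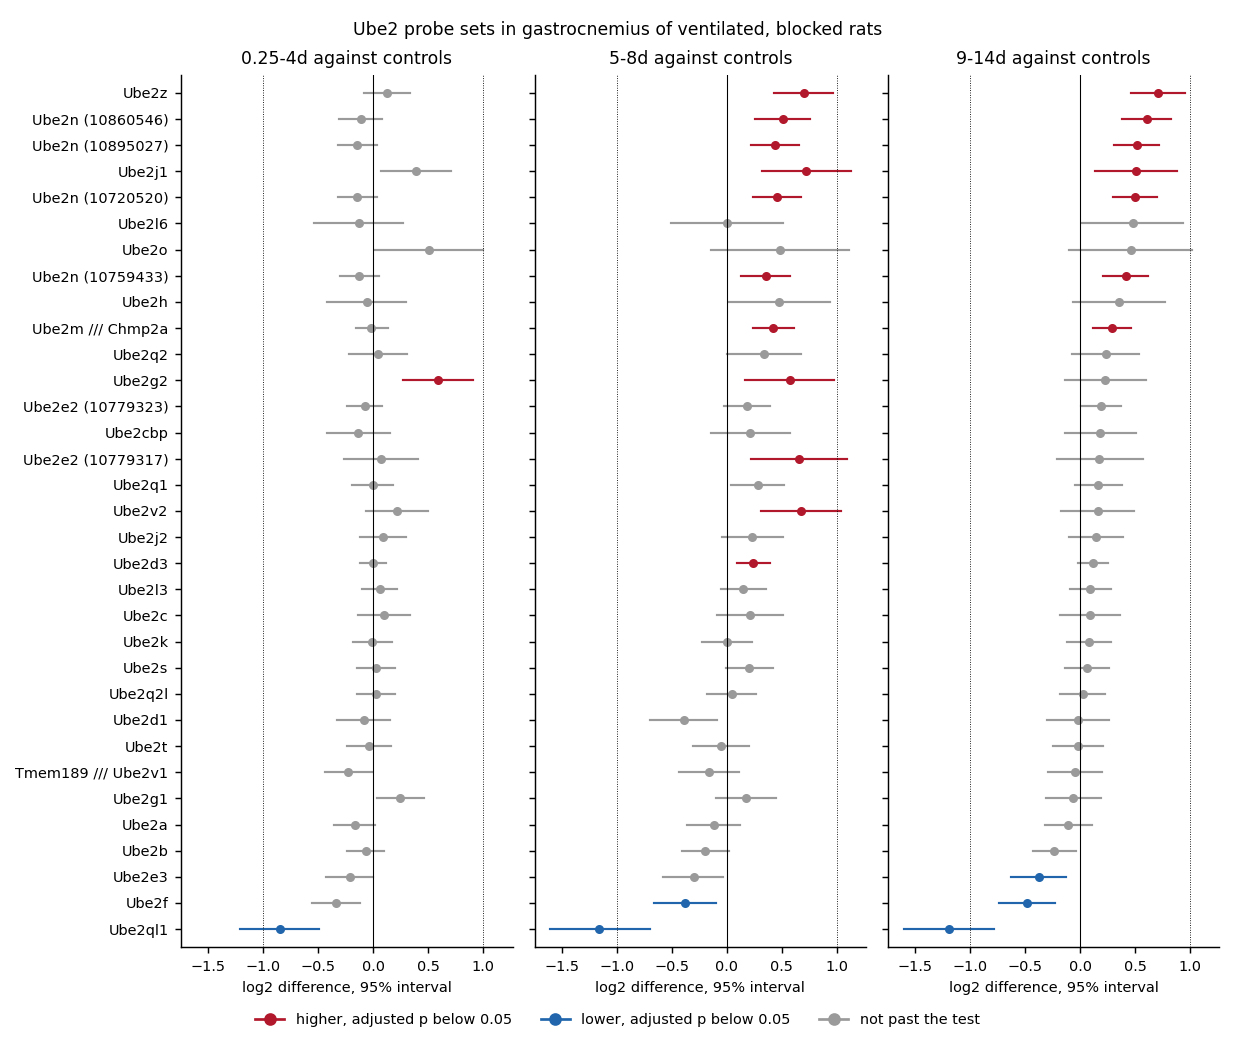
Log2 difference from the controls (x axis) of 33 of the 36 Ube2 probe sets (rows, ordered by the 9-14d value) at the 3 durations, with 95% intervals as bars, red for higher, blue for lower and grey for not past the test. Dotted lines mark a 2-fold change, and Ube2ql1, at -0.85, -1.16 and -1.19, is the 1 probe set whose estimate lies beyond them, at 5-8d and 9-14d.

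The changes were under 2-fold in all but 1 gene. With a 2-fold minimum added to the test, 0 E2 probe sets were called at 0.25-4d and 1 at each later duration, Ube2ql1 both times, whereas 0.549%, 5.21% and 5.12% of all probe sets were called. The whole 95% interval lay within a 2-fold change for 35 of the 36 at 0.25-4d, for 31 at 5-8d and for 34 at 9-14d, or 97.2%, 86.1% and 94.4%, beside 96.3%, 84.9% and 86.1% of all probe sets. The within-group SD of an E2 probe set had a median of 0.2 log2 units, with values from 0.112 to 0.454, and the array's median was 0.203.

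**Figure D2:**
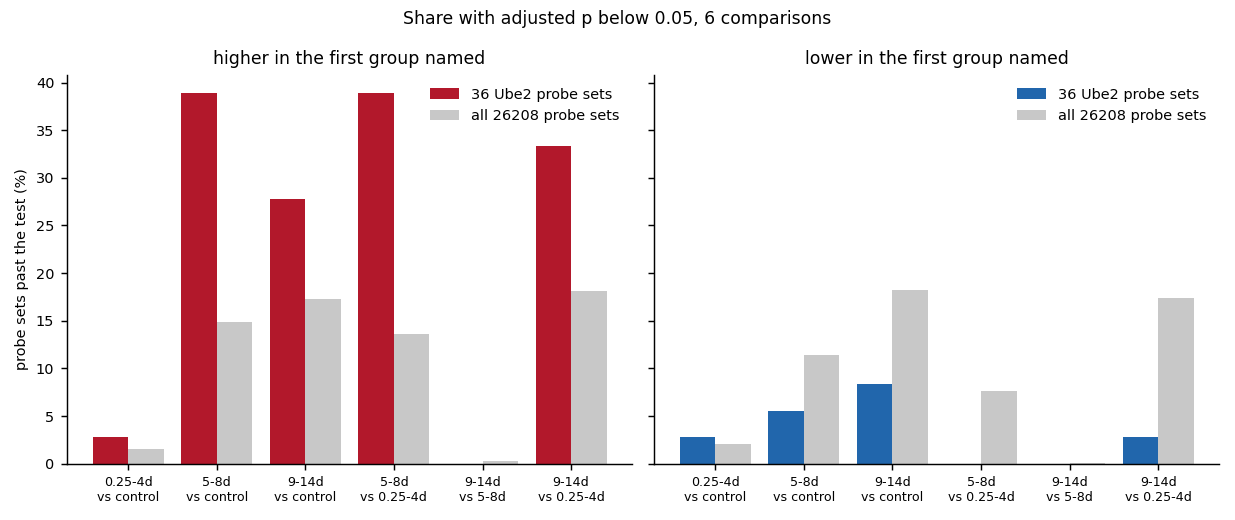
Percentage of probe sets with an adjusted p below 0.05 (y axis, from 0) in 6 comparisons (x axis), coloured for the 36 Ube2 probe sets and grey for all 26208, with the higher calls on the left and the lower calls on the right. The upward share of the E2 probe sets reached 38.9% at 5-8d, against 14.9% of all probe sets.

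Promoters are shown for Ube2z, Ube2n and Ube2j1, which rose at both later durations, and for Ube2ql1, which fell throughout. Each is the 250 bases before the RefSeq gene start on the rat build GRCr8, written 5′ to 3′ on the gene's strand. Capitals mark the letters of the motifs searched on both strands, which were the GC box GGGCGG, the CCAAT box CCAAT, the antioxidant response element TGACNNNGC, the cyclic AMP response core TGACGT, the NRF1 motif (GCGCA, any base, then GCGC), the FOXO motif GTAAACA and the myogenin-type E-box CAGCTG.
Ube2z, chr10:81513642-81513891, minus strand: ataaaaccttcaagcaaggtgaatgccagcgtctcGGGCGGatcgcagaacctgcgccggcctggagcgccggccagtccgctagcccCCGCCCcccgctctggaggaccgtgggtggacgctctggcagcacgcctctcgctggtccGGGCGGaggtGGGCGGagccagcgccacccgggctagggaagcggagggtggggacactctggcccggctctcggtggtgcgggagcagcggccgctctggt
Ube2n, chr7:32040959-32041208, plus strand: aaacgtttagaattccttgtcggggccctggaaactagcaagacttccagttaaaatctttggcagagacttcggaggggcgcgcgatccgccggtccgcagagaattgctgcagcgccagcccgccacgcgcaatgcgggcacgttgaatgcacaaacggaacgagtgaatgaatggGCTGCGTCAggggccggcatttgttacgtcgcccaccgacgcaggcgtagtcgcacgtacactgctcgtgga
Ube2j1, chr5:52218557-52218806, plus strand: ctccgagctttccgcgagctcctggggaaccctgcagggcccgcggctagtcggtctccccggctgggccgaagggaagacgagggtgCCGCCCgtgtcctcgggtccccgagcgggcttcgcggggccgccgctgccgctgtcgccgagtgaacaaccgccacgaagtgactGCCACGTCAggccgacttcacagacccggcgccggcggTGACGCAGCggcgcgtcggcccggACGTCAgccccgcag
Ube2ql1, chr1:35377014-35377263, plus strand: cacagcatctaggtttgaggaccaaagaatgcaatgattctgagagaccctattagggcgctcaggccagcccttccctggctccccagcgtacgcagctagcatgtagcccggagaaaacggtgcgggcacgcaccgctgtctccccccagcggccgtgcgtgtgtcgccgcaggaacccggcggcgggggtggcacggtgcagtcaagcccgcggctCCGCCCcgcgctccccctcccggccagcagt

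The 4 windows differ in which letters they hold. The Ube2z window has 4 GC boxes and no other motif of the search, the Ube2n window 1 antioxidant response element, and the Ube2ql1 window 1 GC box. In the Ube2j1 window one antioxidant response element overlaps a cyclic AMP response core, so the 2 are not separate matches. RefSeq promoters were at hand for 25 of the 30 symbols (26 windows). The E2 windows had a median GC content of 67%, against 51.2% over all 33469 windows. A GC box stood in 69.2% of them and in 30.5% of all windows, and an antioxidant response element in 23.1% and 10.1%. The CCAAT box stood in 23.1% of the E2 windows and in 34% of all. The FOXO letters were in 0 of the 26 and in 3.21% of all, a share so low that 26 windows cannot show a lack of them. FOXO factors are known for switching on Trim63 and Fbxo32 in wasting muscle. A match is a string of letters and not a bound site.

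Ube2z and the E2 enzymes for NEDD8 differed from the controls at the later durations. Ube2z and Ube2m were higher and Ube2f was lower at both 5-8d and 9-14d, and none of them passed the test at 0.25-4d. Ube2z accepts ubiquitin from the E1 enzyme Uba6 and not from the main E1 enzyme, Uba1. Its log2 difference was 0.12 at 0.25-4d (SE 0.102, adjusted p = 0.605), 0.70 at 5-8d (SE 0.130, adjusted p = 0.000182) and 0.70 at 9-14d (SE 0.118, adjusted p = 3.37e-05), a 1.63-fold rise at both later durations. Uba6 itself stood at 0.05, 0.68 and 0.70, with adjusted p of 0.891, 0.00148 and 0.000289. Both members of the route thus had nearly the same log2 difference at each duration. Uba1 stood at -0.05, 0.05 and 0.22 and passed the test at 9-14d only (adjusted p = 0.0313).

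The 2 E2 enzymes for NEDD8, the modifier that activates cullin ligases, lay on opposite sides of the controls at the later durations. Ube2m, read with Chmp2a, stood at -0.02 (SE 0.072), 0.42 (SE 0.092) and 0.29 (SE 0.083), with adjusted p of 0.945, 0.000902 and 0.008. Chmp2a belongs to the ESCRT machinery of membrane scission, and the part of either gene in this value was not tested. Ube2f was lower, at -0.34, -0.38 and -0.49, and passed the test at 5-8d (adjusted p = 0.0426) and 9-14d (adjusted p = 0.00354). With each comparison centred on the median of all probe sets, Ube2f no longer passed at 5-8d. In the direct test, the difference of Ube2f between 0.25-4d and either later duration did not pass (adjusted p = 0.86 and 0.264). Uba3, the catalytic subunit of the NEDD8 E1 enzyme, rose by 0.41 and 0.36 at the later durations. Its partner Nae1 (0.08 and 0.06) and Nedd8 (0.17 and 0.19) did not pass.

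Ube2l6 carries ISG15, an interferon-induced modifier. It stood at -0.13 at 0.25-4d, 0.00 at 5-8d and 0.48 at 9-14d, where its interval of 0.02 to 0.94 excluded 0 but its adjusted p was 0.0974. Isg15 (-0.15, -0.16 and 0.80) and its E1 enzyme Uba7 (-0.05, -0.00 and 0.43) had adjusted p of 0.118 and 0.0681 at 9-14d. Each was at its highest at the longest duration, and none passed the test against the controls.

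**Figure D3:**
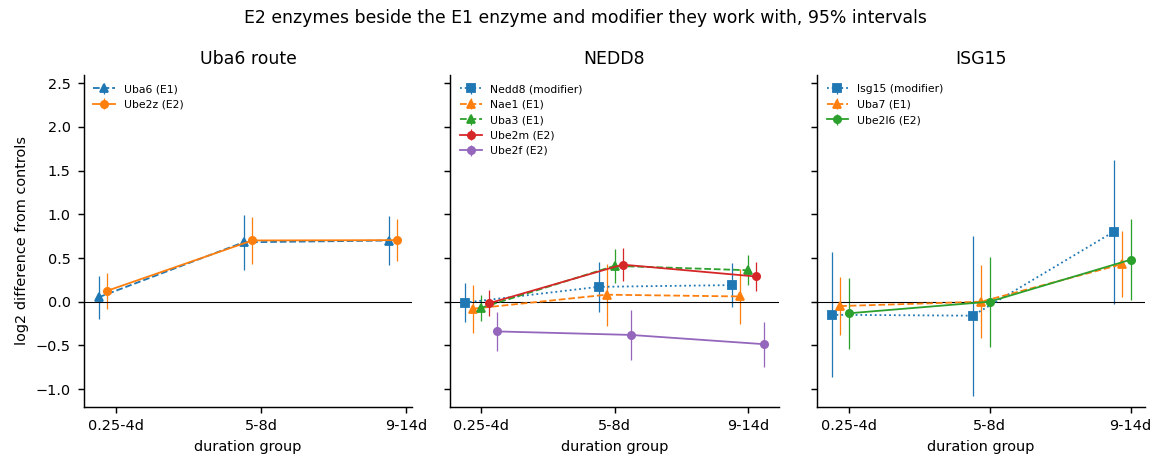
Log2 difference from the controls (y axis, bars are 95% intervals) at the 3 durations (x axis) for E2 enzymes (circles, solid lines) beside the E1 enzymes (triangles, dashed) and modifiers (squares, dotted) of the same route. Uba6 and Ube2z lie together at 0.68 to 0.70 at the later durations, Ube2f lies below 0 while Ube2m lies above it at 5-8d and 9-14d, and the 3 genes of the ISG15 route are highest at 9-14d.

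Ube2n builds ubiquitin chains of the kind linked through Lys63, which serve in signalling and not mainly in degradation, and it needs an inactive E2-like partner, Ube2v1 or Ube2v2. All 4 Ube2n probe sets were below 0 at 0.25-4d, between -0.15 and -0.11, and none passed the test there. At 5-8d they stood between 0.35 and 0.51, and at 9-14d between 0.41 and 0.61, all past the test. The probe set over the Ube2n gene (RGSC 3.4 chromosome 7, 32719959 to 32750002) gave -0.15 (SE 0.086, adjusted p = 0.401), 0.44 (SE 0.109, adjusted p = 0.00311) and 0.51 (SE 0.098, adjusted p = 0.000184).

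The other three Ube2n probe sets lie in stretches of 386, 463 and 346 bases on chromosomes 1, 12 and 4, and RefSeq lists 9 Ube2n pseudogenes. In that order, their values at 0.25-4d were -0.15, -0.13 and -0.11, and at 5-8d they were 0.46 (SE 0.109, adjusted p = 0.00217), 0.35 (SE 0.110, adjusted p = 0.017) and 0.51 (SE 0.122, adjusted p = 0.00219). Their values at 9-14d were 0.50 (SE 0.098, adjusted p = 0.000241), 0.41 (SE 0.099, adjusted p = 0.00191) and 0.61 (SE 0.110, adjusted p = 9.96e-05). All 4 are assigned to the same Ube2n transcript, so they cannot be counted as separate genes. That transcript is matched by all 55 probes of the set over the gene. It is matched by 43 of 47, 16 of 36 and 27 of 33 probes on chromosomes 1, 12 and 4. What the other probes read was not tested.

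**Figure D4:**
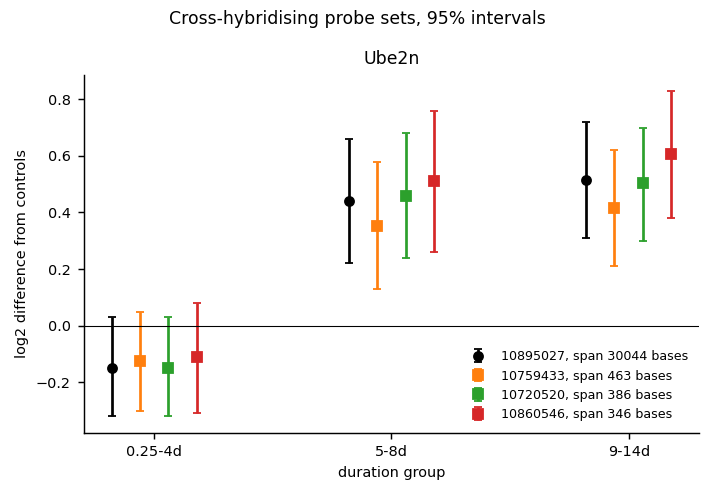
Log2 difference from the controls (y axis, bars are 95% intervals) at the 3 durations (x axis) for the 4 probe sets of Ube2n, with black circles for the probe set over the spliced gene and squares for those over short stretches elsewhere. Their intervals overlap at every duration, and the estimates run from 0.41 to 0.61 at 9-14d.

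The probe sets for the partners of Ube2n gave different values. Ube2v2 stood at 0.22, 0.67 and 0.16 and passed the test at 5-8d only (SE 0.179, adjusted p = 0.00544). The probe set shared by Tmem189 and Ube2v1 stood at -0.23, -0.16 and -0.04 and never passed. It spans 444 bases on chromosome 14, all of its 33 probes match Ube2v1, and RefSeq lists 17 Ube2v1 pseudogenes. The RefSeq promoter of Ube2v1 lies on chromosome 3, and no other probe set carries that symbol. Ube2v1 was thus not read apart from its copies, and the courses of the partners cannot be compared. A separate probe set for Tmem189, which neighbours Ube2v1 and can be transcribed with it, stood at 0.08, 0.64 and 0.22 and passed at 5-8d (adjusted p = 0.00088).

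Ube2g2, of endoplasmic reticulum (ER) quality control, was the 1 E2 probe set that was higher at 0.25-4d. The E2 enzymes of this group ubiquitinate misfolded proteins as these leave the ER. Ube2g2 was 1.5-fold higher at 0.25-4d (log2 difference 0.59, SE 0.157, adjusted p = 0.0331), held 0.58 at 5-8d (adjusted p = 0.0327) and stood at 0.23 at 9-14d (adjusted p = 0.332). In the direct test, its 9-14d value did not differ from that at 5-8d (-0.35, adjusted p = 0.446) or at 0.25-4d (-0.36, adjusted p = 0.0566). Ube2j1, which is anchored in the ER membrane, stood at 0.39, 0.72 and 0.51 and passed at both later durations (adjusted p = 0.00734 and 0.0296). Its relative Ube2j2 stayed between 0.09 and 0.23, and Ube2g1 stood at 0.25, 0.17 and -0.06, without passing against the controls. The ER ligase Syvn1 (HRD1) did not pass at any duration, at 0.26, 0.12 and 0.09, while Rnf139 passed at 5-8d (0.72, adjusted p = 0.0485).

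The broadly acting UBCH5 enzymes serve many RING ligases, Trim63 among them in the test tube. Ube2d3 rose at 5-8d alone, by 0.24 (SE 0.075, adjusted p = 0.0168), and stood at 0.00 and 0.12 at 0.25-4d and 9-14d. Its small SE makes this a call at 1.18-fold. Ube2d1 went the other way at 5-8d, at -0.39 (95% interval -0.70 to -0.09), with an adjusted p of 0.0523.

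In the class III group, whose members carry an N-terminal extension, the probe sets diverged. The Ube2e2 probe set 10779317 rose at 5-8d by 0.66 (SE 0.212, adjusted p = 0.021) and stood at 0.07 and 0.18 at the other durations. The second Ube2e2 probe set, 10779323, stood at -0.08, 0.18 and 0.19 and did not pass against the controls. It lies further along chromosome 15, carries another Ensembl gene ID and was matched to no RefSeq symbol. Whether it reads Ube2e2 or a neighbouring gene was not tested. Ube2e3 fell at 9-14d, by 0.38 on the log2 scale (adjusted p = 0.0171), after -0.21 and -0.30. That call was lost when the comparison was centred on the median of all probe sets.

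Ube2a and Ube2b, the counterparts of yeast RAD6, act in DNA damage tolerance and histone ubiquitination, and Ube2b has long been studied in wasting muscle. Neither passed the test. Ube2b stood at -0.07, -0.20 and -0.24 with an adjusted p of 0.0516 at 9-14d, and Ube2a at -0.17, -0.12 and -0.11. All 6 estimates were below 0. Ube2k, which builds the Lys48 chains that are the classical signal for the proteasome, stood at -0.01, 0.01 and 0.08, with its widest interval from -0.22 to 0.23.

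The cell cycle enzymes did not pass the test. Ube2c and Ube2s load and extend chains for the anaphase-promoting complex, and Ube2t serves Fanconi DNA repair. At 5-8d Ube2c stood at 0.21, Ube2s at 0.20 and Ube2t at -0.05, and at 9-14d they were between -0.02 and 0.09. Of 12 genes of proliferation, Fancd2, a substrate in the Ube2t pathway, was the 1 that passed at 5-8d (0.64) and at 9-14d (0.73).

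Ube2ql1 was the E2 gene with the largest change and the only one to pass at all 3 durations. It resembles the Q family of E2 enzymes. It fell by 0.85 on the log2 scale at 0.25-4d (SE 0.175, adjusted p = 0.00434), by 1.16 at 5-8d (SE 0.222, adjusted p = 0.000257) and by 1.19 at 9-14d (SE 0.201, adjusted p = 3.78e-05). Its level was thus lower by factors of 1.8, 2.23 and 2.29. The difference between 0.25-4d and either later duration did not pass (adjusted p = 0.277 and 0.102).

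The remaining E2 probe sets did not pass against the controls. Ube2o, a large enzyme that combines E2 and E3 activity, had the widest errors, at 0.51, 0.49 and 0.46 (SE 0.239 to 0.305), and both 0 and the 0.70 of Ube2z lay within its intervals at 5-8d and 9-14d. Ube2h stood at -0.06, 0.48 and 0.36, and Ube2q1 at -0.01, 0.28 and 0.16. Ube2l3, a partner of HECT ligases and of parkin, stood between 0.06 and 0.15. Ube2q2 stood at 0.04, 0.34 and 0.24, Ube2q2l between 0.02 and 0.05, and Ube2cbp at -0.14, 0.22 and 0.19.

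**Figure D5:**
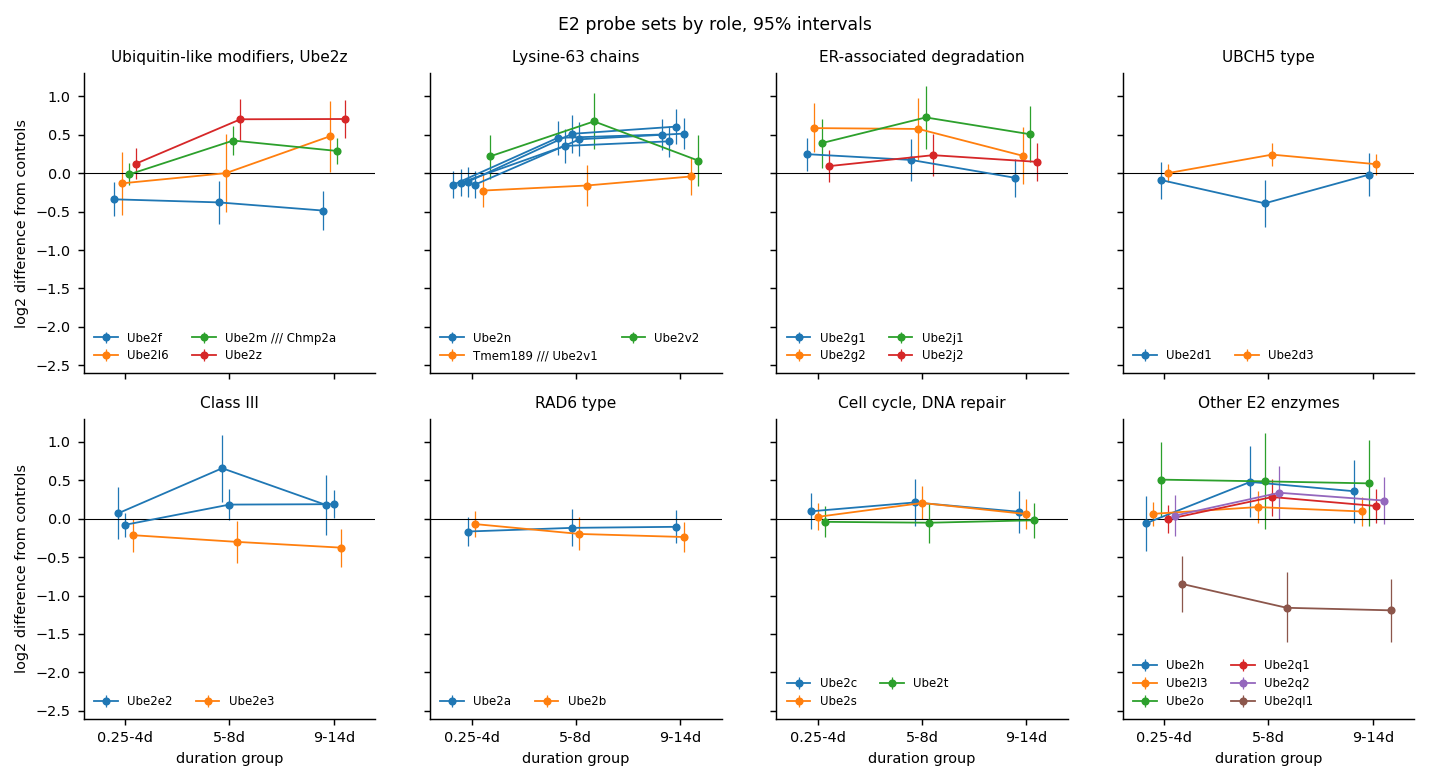
Log2 difference from the controls (y axis, bars are 95% intervals) at the 3 durations (x axis) for E2 probe sets grouped by role, with several lines of 1 colour where a gene has several probe sets. The Ube2n lines cross from below 0 to between 0.35 and 0.51 at 5-8d, and Ube2ql1 lies at -0.85, -1.16 and -1.19. Ube2g2 and Ube2v2 lie nearer 0 at 9-14d than at 5-8d, but neither difference passed the direct test over all probe sets.

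A direct test set the durations against each other. In it, 14 probe sets (9 symbols) were higher at 5-8d than at 0.25-4d and 0 were lower, or 38.9% and 0%, against 13.6% and 7.64% of all probe sets. Without cross-hybridising or shared probe sets, 7 of 27 (25.9%) were higher, against 12.2% of such probe sets on the array. The 4 Ube2n probe sets were among them, with log2 differences of 0.48 to 0.62 and adjusted p from 1.71e-05 to 0.000369. Ube2m with Chmp2a was higher by 0.44 (SE 0.078, adjusted p = 0.000114), and Ube2z by 0.58 (SE 0.111, adjusted p = 0.000315).

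Ube2d3 (0.24, SE 0.064, adjusted p = 0.00654) and Ube2v2 (0.46, SE 0.152, adjusted p = 0.0306) were also higher. Both probe sets labelled Ube2e2 passed, at 0.59 (SE 0.180, adjusted p = 0.0184) for 10779317 and 0.26 (SE 0.085, adjusted p = 0.025) for 10779323. Ube2h (0.54, SE 0.191, adjusted p = 0.0429) and Ube2q1 (0.29, SE 0.099, adjusted p = 0.036) passed here without passing against the controls.

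From 5-8d to 9-14d the test called 0 E2 probe sets. It called few of any kind, 0.305% of all probe sets higher and 0.103% lower, and the comparison rests on 4 rats against 6. At an unadjusted p below 0.05 there were 3 E2 probe sets, or 8.33%, against 13.2% of all probe sets. Ube2v2 had the largest, lower at 9-14d by 0.51 on the log2 scale (95% interval -0.86 to -0.16, adjusted p = 0.172). That value passed when the 3 comparisons between durations were adjusted together (adjusted p = 0.0364). The Ube2e2 probe set 10779317 stood at -0.48 (adjusted p = 0.294) and Ube2d1 at 0.37 (adjusted p = 0.241). Ube2z differed by 0.00 between these durations, with an interval of -0.25 to 0.26.

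Between the first and the last durations, 12 probe sets (7 symbols) were higher at 9-14d and 1 was lower, or 33.3% and 2.78%, against 18.1% and 17.4% of all probe sets. Without cross-hybridising or shared probe sets, 3 of 27 (11.1%) were higher, against 16.6% of such probe sets on the array, so the upward share was then below that of the array, and 1 (3.7%) was lower, against 17.4%. The Ube2n probe sets were higher by 0.54 to 0.72 with adjusted p from 1.98e-07 to 6.27e-06. Ube2z was higher by 0.58 (SE 0.096, adjusted p = 2.56e-05), Ube2m with Chmp2a by 0.31 (SE 0.068, adjusted p = 0.000849), the Ube2e2 probe set 10779323 by 0.27 (SE 0.073, adjusted p = 0.00557) and Ube2h by 0.42 (SE 0.165, adjusted p = 0.049). The call of Ube2h was lost under that joint adjustment. Ube2l6 was higher by 0.61 (SE 0.185, adjusted p = 0.0113). Ube2g1 was the 1 that was lower, at -0.31 (SE 0.099, adjusted p = 0.0171), a call that was lost with centring on the median.

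Over the 6 comparisons, 22 probe sets (16 symbols) passed the test at least once, or 61.1%, against 51.6% of all probe sets. Against the controls, 17 (12 symbols) did, or 47.2%, against 41.4% of all probe sets. The other 5, of Ube2h, Ube2q1, Ube2e2, Ube2l6 and Ube2g1, passed between durations only.

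The enzymes on either side of the E2 step were described in the same way. Of 11 probe sets of E1 enzymes, 0 passed at 0.25-4d, 4 were higher at 5-8d and 5 at 9-14d, and 0 were lower, with median log2 differences of -0.07, 0.31 and 0.29. Beside Uba6 and Uba3, the later calls included Atg7, the E1 of autophagy (0.57 and 0.31). A list of E2 enzymes or E2-like proteins with other names, to which Tmem189 was added, held 9 probe sets. Tmem189 is the neighbour of Ube2v1 and not itself an E2 enzyme. Its separate probe set was among the 9, as was the one shared with Ube2v1, which is already counted among the Ube2 probe sets. Of the 9, 2 were higher at 5-8d, Tsg101 and the separate Tmem189 probe set (0.64, adjusted p = 0.00088), and 3 at 9-14d. Tsg101, an ESCRT protein with an inactive E2 fold, rose by 0.46 and 0.45, Aktip by 0.36 at 9-14d, and Atg3, the E2 of LC3 lipidation, by 0.36 at 9-14d. Ufc1 (0.33 and 0.26), Cdc34 (0.17 and 0.29), Atg10 (0.07 and 0.11) and Birc6, read with Ttc27 (0.24 and 0.06), did not pass.

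Among 18 probe sets of ubiquitin and ubiquitin-like modifiers, 9 were higher at 5-8d and 8 at 9-14d, and 0 were lower. The largest differences were those of Rps27a, a fusion of ubiquitin with a ribosomal protein, at 1.01 to 1.16 and then 0.96 to 1.09 in 3 cross-hybridising probe sets. Ufm1 rose by 0.95 at 5-8d. The polyubiquitin gene Ubb did not pass against the controls in either of its probe sets.

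The E3 ligases moved in both directions. Of 27 probe sets, 3 were higher and 1 lower at 0.25-4d, 5 and 2 at 5-8d, and 6 and 3 at 9-14d. Trim63 stood at 1.48, 1.78 and 1.11 and Fbxo32 at 0.94, 1.10 and 0.82, all past the test. Both were already raised at 0.25-4d, a duration at which 2 of the 36 E2 probe sets passed. Wwp1, a HECT ligase, was lower at -1.39 and -1.44 at the later durations, and Park2, which encodes parkin, at -0.64 and -0.53. The lists carry the background given above for each duration, and no list was tested as a set.

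Markers of some other cells differed from the controls too. At 9-14d, 9 of 10 macrophage markers were higher (median log2 difference 1.22, from 0.53 to 1.80), against 0 of 10 at 5-8d (median -0.01) and 1 of 10, Cd163, at 0.25-4d. Of 16 probe sets of interferon-induced genes, 8 were higher at 9-14d (median 1.02) and 0 before. Ube2l6 reached its highest value at that duration. Of 10 skeletal muscle probe sets, 6 were lower at 9-14d (median -0.39) and 2 at 5-8d (median -0.16), where 1, Des, was higher. Fibroblast markers fell in 4 of 6 at 5-8d, with a median of -1.65, and in 2 of 6 at 9-14d. Of 4 endothelial markers, 2 were lower at each later duration, and of 4 fat cell markers, 1, Cfd, was higher at 9-14d. Over all probe sets, 1.49% were higher at 0.25-4d, 14.9% at 5-8d and 17.3% at 9-14d. The lower shares were 2.06%, 11.4% and 18.2%. Lists of 4 markers are too short to be set apart from these shares. The part of these cells in the E2 values was not tested.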

How the data were processed

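Rat Gene 1.0 ST arrays of 28 gastrocnemius samples were grouped by their labels (5 controls, 13, 4 and 6 rats). Per the study's methods, the authors normalised the arrays by RMA, fitted 1 linear model in limma and compared each duration with the controls. The labels list MAS5 and RMA as tools without versions. The 1 deposited table holds, from the authors, log2 ratios and Benjamini-Hochberg adjusted p-values of those 3 comparisons. Its first line calls the log2 values lowess normalised, in conflict with RMA, and they were used as deposited. These columns hold the authors' own comparisons. They were used because the table holds no values of single rats, and every log2 value and adjusted p against the controls is the authors' pooled value, with no depth per array.

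The Benjamini-Hochberg adjustment was undone to give unadjusted p-values. Each p and its log2 ratio gave the moderated statistic at 28.26 degrees of freedom (24 residual, 4.26 prior), the number at which the 3 comparisons of a probe set return the same within-group SD. SEs, 95% intervals and the comparisons between durations followed from that SD and the numbers of rats, adjusted by Benjamini-Hochberg over all 26208 probe sets. Recomputed adjusted p-values changed 0 calls, and the error bound of the SD was at most 0.0056% for the E2 probe sets. The recovery was tested on simulated data. Nothing in the labels says that rats of a group were run apart. The p-values measure the spread between these samples, which within an experimental group also holds differences in duration. Python 3.11.15, numpy 2.4.6, pandas 2.3.3 and scipy 1.17.1 were used.

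The E2 probe sets were those with a symbol starting with Ube2, ordered by role. Values of some genes, 1 E2 gene among them, are not reported here, though they stay in the counts and medians. Each other member is named at least once, those past the test in any of 6 comparisons with all 3 values, and full statistics are given for the 8 with the largest moderated statistic and for those that changed between durations. The members, the 11 lists of pathway or marker genes and their tests were chosen with earlier results of these data known. Positions of probe sets are on RGSC 3.4 as the table gives them, and promoters come from RefSeq on GRCr8, matched by symbol. Transcripts matched 32 of the 36 probe sets to a RefSeq symbol. Alternatives were a 2-fold minimum, an adjusted p below 0.01, adjustment over 3 comparisons together or over probe sets with a symbol, centring on the median, leaving out cross-hybridising or shared probe sets, and counting symbols.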

Additional observations from a re-analysis of the deposited data

Results flagged for a closer look

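Against the common controls, an effect is listed here where the direct test between 2 durations gave an adjusted p under 0.05 (limma, from the recovered SDs). The comparisons share rats, and the 22 values are not independent of one another.

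Between 0.25-4d and 5-8d, the log2 difference was 0.24 for Ube2d3, 0.59 and 0.26 for the Ube2e2 probe sets 10779317 and 10779323, 0.54 for Ube2h, and 0.44 for Ube2m with Chmp2a. For Ube2n it was 0.61, 0.48, 0.62 and 0.59 in the probe sets 10720520, 10759433, 10860546 and 10895027. It was 0.29 for Ube2q1, 0.46 for Ube2v2 and 0.58 for Ube2z.

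Between 0.25-4d and 9-14d, the difference was 0.27 for the Ube2e2 probe set 10779323, -0.31 for Ube2g1, 0.42 for Ube2h, 0.61 for Ube2l6 and 0.31 for Ube2m with Chmp2a. For Ube2n it was 0.65, 0.54, 0.72 and 0.66 in the same order of probe sets as above, and for Ube2z 0.58. The 4 Ube2n probe sets are assigned to the same transcript, and how the gene and its copies share in them was not tested.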

How the results depend on the processing

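Against the controls, 2, 16 and 13 E2 probe sets passed the test at the first, middle and last durations, and 14 and 13 passed at the middle and last durations against the first. With the 2-fold minimum these 5 counts were 0, 1, 1, 0 and 0. At an adjusted p below 0.01 they were 1, 10, 10, 8 and 8, of which the third moved by under 1.5 times. Without cross-hybridising or shared probe sets they were 2, 8, 5, 7 and 4, and as distinct symbols 2, 11, 8, 9 and 8. Between 5-8d and 9-14d the count of 0 became 1, Ube2v2 at -0.51, when the 3 comparisons between durations were adjusted together. Centring on the median and adjusting over probe sets with a symbol kept every count within 1.5 times. Centring turned 4 near-zero values: Ube2q1 to 0.01 at 0.25-4d, Ube2g1 to 0.01 at 9-14d, Ube2g2 to 0.02 between 0.25-4d and 5-8d, and Ube2v2 to 0.01 between 0.25-4d and 9-14d. It ended the calls of Ube2f at 5-8d (-0.34, adjusted p = 0.0752), Ube2e3 at 9-14d (-0.31, adjusted p = 0.0541) and Ube2g1 between 0.25-4d and 9-14d (-0.24, adjusted p = 0.0667), and it added 5. Adjusting the 3 comparisons together ended that of Ube2h (adjusted p = 0.0785) between 0.25-4d and 9-14d, and it added that of Ube2f at 0.25-4d (-0.34, adjusted p = 0.0246). Leaving out single rats was not run, because the table holds group values. No paired analysis was possible because the table holds group values and no numbers that pair rats across groups.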
